A study of Mus musculus with 8 samples.

Results

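The proteasome genes described here are the 48 genes of the count table, of 17910 in all, whose symbols begin with Psma to Psmg followed by a number, chosen by symbol alone. They comprise 7 Psma, 11 Psmb, 6 Psmc, 14 Psmd, 5 Psme and 4 Psmg genes and Psmf1, and all 48 passed the filter on low counts that kept 12618 genes for testing. RNA came from wild-type mouse embryonic fibroblasts, which the labels give as purchased cells grown in serum-containing medium. There were 4 groups of 2 libraries: untreated control, SRT1720 at 0.2 µM, RSL3 at 1 µM for 2 h, and SRT1720 given 30 min ahead of RSL3. RSL3 blocks the lipid peroxide-reducing enzyme GPX4 and is a trigger of ferroptosis, and SRT1720 is marketed as a SIRT1 activator. All groups are labelled 2 h, and no vehicle is named for the control. The labels do not say that the libraries of a group came from separate cultures, so a p-value reflects the spread between the deposited libraries alone, which may be technical. The extraction text of the labels speaks of human HT1080 cells and lung tissue in place of the fibroblasts.

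The 26S proteasome degrades proteins tagged with ubiquitin. Its 20S core is a barrel of stacked rings, with Psma subunits in the outer rings that gate the entrance and Psmb subunits in the inner rings that carry the peptidase sites. The 19S cap sits on the barrel: its Psmc ATPases unfold substrates, and its Psmd subunits bind ubiquitin chains and remove them. Interferon exchanges the active beta subunits for Psmb8, Psmb9 and Psmb10 to form the immunoproteasome, and Psme proteins are other caps. When proteasome capacity runs short, the transcription factor NRF1 (gene Nfe2l1) is known to raise transcription of proteasome genes through antioxidant response elements.

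The libraries held 20579122 to 21287620 counts. Levels are CPM, that is counts divided by library size and corrected for composition by TMM, and the 2 values of a group are given in the order replicate 1, replicate 2. The summed level of 9 fibroblast markers was 6355 to 10276 CPM per library, and all 9 were detected, although Dcn was at 0.172 to 0.717 CPM only. The 4 leukocyte markers summed to 3.10 to 4.03 CPM in control, 5.12 to 5.82 in SRT1720, 11.6 to 15.8 in RSL3 and 8.38 to 9.91 with both compounds. Their defining marker Ptprc was at 0 to 0.0882 CPM, and the rest was mostly Cd68, which stood at 2.79 to 13.0 CPM. The 4 endothelial markers summed to 1.55 to 2.23 CPM in control, 4.48 to 4.76 in SRT1720, 3.74 to 4.89 in RSL3 and 9.25 to 9.97 with both compounds, mostly from Cdh5 and Kdr. The 4 epithelial markers summed to 0.549 to 1.11 CPM and the 4 germ cell ones to 0 to 0.134, with Sycp3 at 0 in every library. Whether these markers have a part in any result below was not tested.

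Every one of the core and cap subunits of the standard proteasome was expressed. Per kilobase of the longest coding transcript, control means ran from 341 CPM for Psmb3, the beta3 subunit, down to 0.333 for Psmb11, the beta5t subunit known from thymic epithelium. Next to Psmb3 were Psmb6 at 213 and Psmb2 at 184 CPM per kilobase, the beta1 and beta4 subunits. The assembly chaperones were far lower, from 12.3 for Psmg2 to 27.8 for Psmg1 among the 20S chaperones and from 13.4 for Psmd10 to 27.1 for Psmd5 among the 19S chaperones. The alternative caps spanned 82.1 CPM per kilobase for the nuclear PA28 subunit Psme3, 79.6 and 66.1 for Psme1 and Psme2, and 12.1 for Psme4 (PA200). Psmb9 and Psme2b were near the bottom at 1.33 and 1.59 CPM per kilobase. Psme2b is a near copy of Psme2, so how their shared reads were split is uncertain.

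The immunoproteasome subunits were a small part of the beta subunits in every library. On the scale of CPM per kilobase, Psmb8 (beta5i) was 9.31% to 13.2% of the subunit it replaces, Psmb5. Psmb10 (beta2i) was 7.79% to 16.4% of Psmb7. Psmb9 (beta1i) was 0.456% to 0.784% of Psmb6. Foxn1, the thymic epithelial factor that is known to control Psmb11, was at 0.896 to 5.14 CPM, and Psmb11 itself at 1.19 to 1.88 CPM with libraries of all groups overlapping.

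The promoter windows of 41 members were found in RefSeq (GRCm38.p6), from 250 bases before the start to 50 after it. The antioxidant response element core TGACNNNGC, read on both strands, occurred in 6 of the 41 (14.6%), against 14% of 27025 genes with a window. Those members were Psmb5, Psmb6, Psmc6, Psmd12, Psmd9 and Psme4. The CCAAT box, CCAAT on both strands, occurred in 14 (34.1%) against 41.1%. The interferon-stimulated response element, also read on both strands, occurred in 5 (12.2%), which were Psmb3, Psmd4, Psmd9, Psme1 and Psmg4, against 3.99%. The ATF4 element TGATGNAA occurred in Psmd13 only (2.44% against 4.51%), and the heat shock element in no member against 0.662% of all. A match is a run of letters and not a measured binding site. The stretches around the antioxidant cores upstream of the start are shown with the core in capitals, 5′ to 3′ on the strand of the gene. In Psmc6 and Psmd12 the core reads on the other strand. They were picked for display because transcripts of the factors known to bind this element rose after RSL3. Whether these factors act at the cores was not tested. The last line is the stretch of Psmd4, the member with the largest rise after RSL3, with its CCAAT box upstream of the start, on the other strand, in capitals. Its further CCAAT matches lie past the start, and its interferon-stimulated match in this stretch is left in small letters.
Psmb5, chr14:54618004-54618072, minus strand: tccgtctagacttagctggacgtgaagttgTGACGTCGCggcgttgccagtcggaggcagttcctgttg
Psmb6, chr11:70525318-70525356, plus strand: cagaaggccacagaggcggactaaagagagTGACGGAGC
Psmc6, chr14:45329574-45329635, plus strand: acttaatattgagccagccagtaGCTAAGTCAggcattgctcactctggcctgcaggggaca
Psmd12, chr11:107479278-107479319, plus strand: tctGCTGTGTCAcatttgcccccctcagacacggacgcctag
Psmd9, chr5:123228129-123228189, plus strand: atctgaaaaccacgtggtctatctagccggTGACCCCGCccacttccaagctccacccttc
Psmd4, chr3:95042675-95042739, minus strand: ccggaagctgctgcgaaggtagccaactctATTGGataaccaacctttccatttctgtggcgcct
Counted from the start that each window was set on, the first letter of the core lay 47 bases before it in Psmb5 and 9 in Psmb6. The distance was 31 bases in Psmd9, 227 in Psmc6 and 247 in Psmd12. The RefSeq gene span of Psmb6 begins earlier, at chr11:70525324, so its printed core lies inside that span. The core of Psme4 begins 7 bases before the start and runs past it.

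After 2 h of RSL3, 12 of the 48 proteasome genes rose and 1 fell, and no rise exceeded the 1.5-fold of Psmd4. Across all 12618 genes, 18.3% rose and 17.5% fell, so the share of members that rose was 25.0% against 18.3%. The risers were Psma1, the beta-ring genes Psmb2, Psmb3, Psmb4 and Psmb6, the ATPases Psmc2, Psmc4 and Psmc6, and the cap genes Psmd3, Psmd4, Psmd8 and Psmd11, and the one that fell was the chaperone Psmg3. The log2 fold changes of the members had a median of 0.20 (range −0.45 to 0.59) against 0.01 for all genes, and 43 of 48 were above 0. Their SD was 0.211 against 0.806 for all genes, and 95.8% of members lay within 0.5 of 0 against 66% of all genes. Both RSL3 libraries were above both controls for 27 members (56.2%), against 31.9% of all genes, and below for 4 (8.33%), against 31.6%. The upward direction rests on the correction for library composition: with scaling by library size alone, which shifted the median of all genes by −0.28, the members' median was −0.09, 18 were above 0, and 2 (Psmc6 and Psmd4) rose and 5 fell (Psmb10, Psmd5, Psme3, Psmg2 and Psmg3). As a share of all counts the 48 genes made up 0.727% and 0.755% in control and 0.713% and 0.736% in RSL3. The count of rises was 5 without control replicate 1. In bulk RNA, fewer cells of a type and less RNA per cell cannot be told apart.

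**Figure D1:**
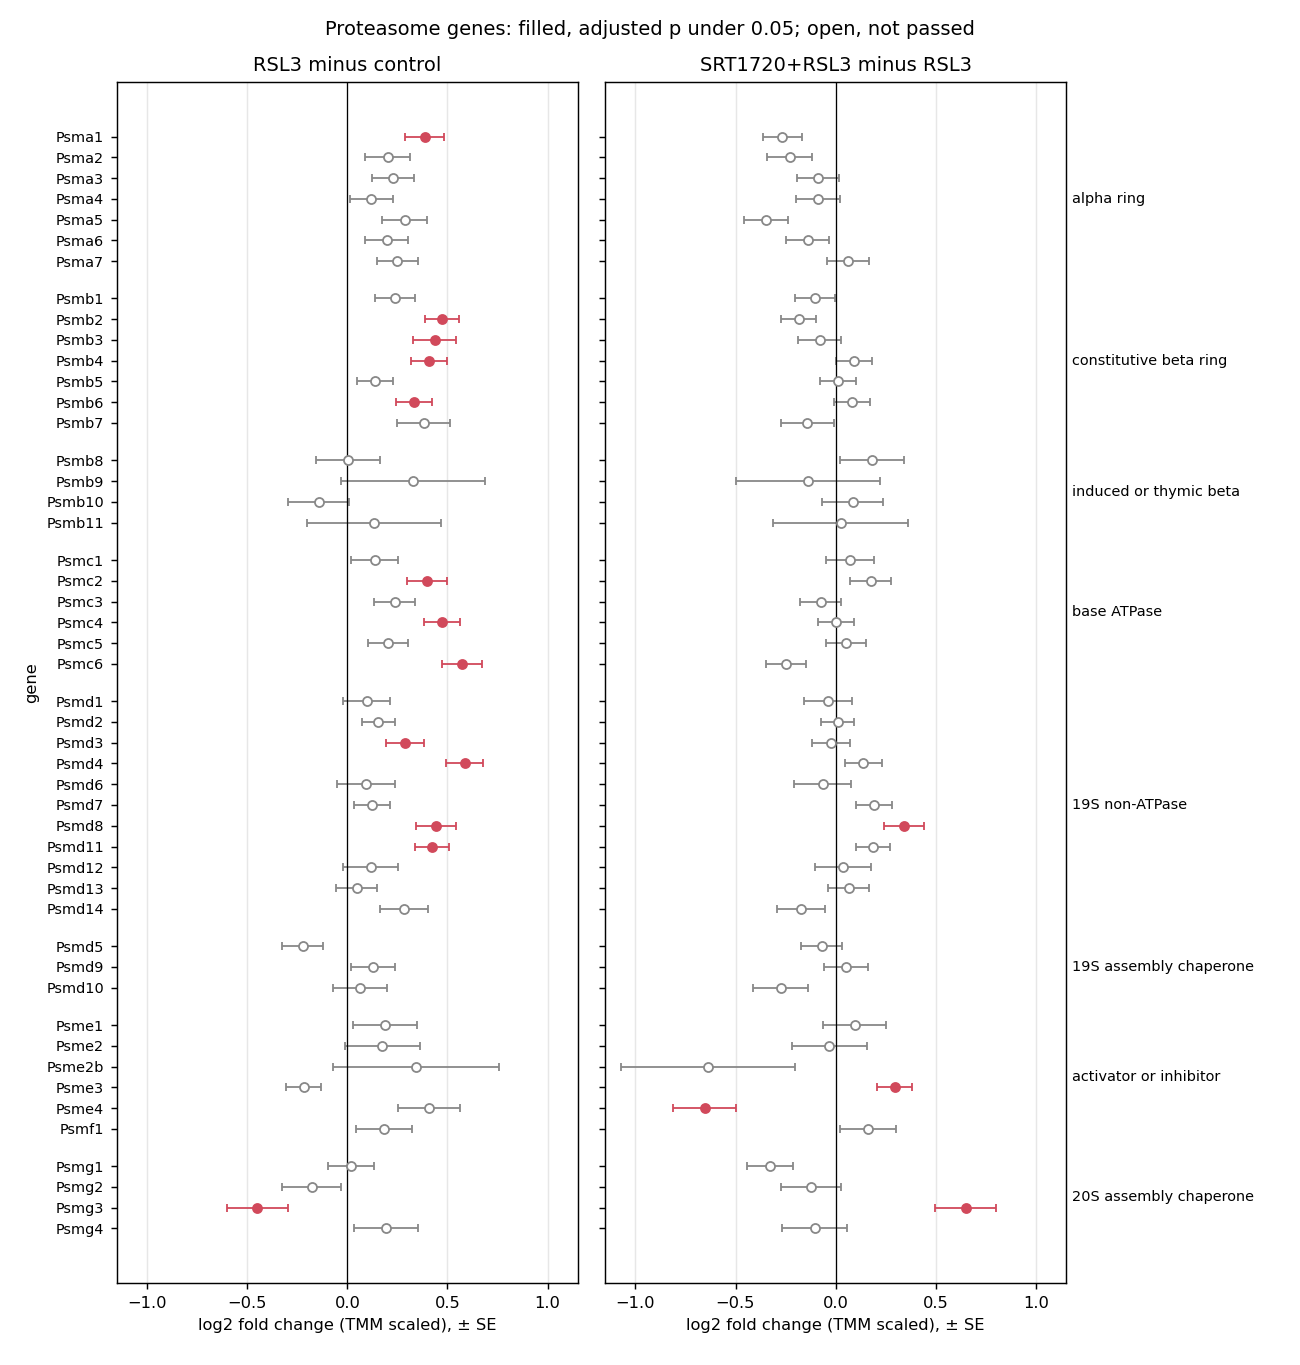
Log2 fold change (TMM scaled, ± SE) of each of the 48 proteasome genes, grouped by role, for RSL3 minus control (left) and SRT1720+RSL3 minus RSL3 (right). Filled points passed the adjusted p threshold of 0.05 in edgeR: 13 members on the left, all but Psmg3 to the right of 0, and 4 on the right.

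Of the 7 alpha-ring genes, 1 rose after RSL3 and the median log2 fold change was 0.23. Psma1 (alpha6) was at 100.3 and 104 CPM in control, 92.2 and 99.0 in SRT1720, 131 and 136 in RSL3, and 104 and 118 with both compounds. Its RSL3 libraries stood above all the others, and the rise over control was 0.39 ± 0.10 on the log2 scale (SE, 2 libraries a group, edgeR adjusted p = 0.0121). The other 6 ranged from 0.12 (Psma4) to 0.29 (Psma5) and did not pass.

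The constitutive beta ring had 4 rises among 7 genes, with a median log2 fold change of 0.38. Psmb2 (beta4) measured 154 and 163 CPM in control, 166 and 159.8 in SRT1720, 219 and 220.1 in RSL3, and 188 and 199 with both compounds, so both groups given RSL3 lay above both without it. Its rise after RSL3 was 0.47 ± 0.09 (edgeR adjusted p = 0.00222). Psmb3 (beta3) went from 252 and 271 CPM in control to 373 and 335 in RSL3, a rise of 0.44 ± 0.11 (edgeR adjusted p = 0.0103). Psmb4 (beta7) was at 175 and 185 CPM in control, 182 and 177 in SRT1720, 245 and 233 in RSL3, and 242 and 268 with both compounds. The 4 libraries with RSL3 were again above the 4 without it, and Psmb4 rose after RSL3 by 0.41 ± 0.09 (edgeR adjusted p = 0.00646).

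Of the 3 constitutive genes that carry peptidase sites, 1 passed. Psmb6 (beta1, cleaving after acidic residues) was at 171 and 169 CPM in control and 224 and 204 in RSL3, a rise of 0.33 ± 0.09 (edgeR adjusted p = 0.0183). It passed under 12 of 17 alternatives. The call was lost with library size alone and with only the 4 libraries compared, and with 1 library left out the log2 difference of Psmb6 ran from 0.24 to 0.40. Psmb7 (beta2, cleaving after basic residues) was at 135 and 147 CPM in control and 165 and 202 in RSL3, and its difference of 0.38 ± 0.13 missed the threshold (edgeR adjusted p = 0.0502). Psmb7 passed with the replicate numbers as a block, as labelled or crossed between groups (the latter chosen after seeing the data), with RLE scaling, by DESeq2 and without RSL3 replicate 1. Psmb5 (beta5, cleaving after hydrophobic residues and the main target of proteasome inhibitors) was at 143 and 145 CPM in control and 158 and 158 in RSL3. Its libraries did not overlap, but the difference of 0.14 ± 0.09 did not pass (edgeR adjusted p = 0.262) and turned to −0.15 with library size alone. Both Psmb5 and Psmb6 hold an antioxidant core close to the start that the window was set on, in the stretches printed above.

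Among the ATPases of the cap base 3 of 6 rose, and the median was 0.32. Psmc6 (Rpt4) stood at 136 and 154 CPM in control, 143 and 149.7 in SRT1720, 205 and 226 in RSL3, and 189 and 174 with both compounds. The 4 libraries given RSL3 were above the 4 without it, and the rise over control of 0.57 ± 0.10 (edgeR adjusted p = 0.0018) passed under all 17 alternatives. Psmc4 (Rpt3) was at 167 and 155 CPM in control and 231 and 216 in RSL3, up by 0.47 ± 0.09 (edgeR adjusted p = 0.00256). Psmc2 (Rpt1) was at 214 and 253 CPM in control and 315 and 302 in RSL3, up by 0.40 ± 0.10 (edgeR adjusted p = 0.0118). Psmc1 (Rpt2), with 251 and 303 CPM in control and 279 and 330.0 in RSL3, overlapped between the groups. Its difference was 0.14 ± 0.12 (edgeR adjusted p = 0.410), and −0.15 with library size alone. The remaining pair, Psmc3 and Psmc5 (Rpt5 and Rpt6), had log2 differences of 0.24 and 0.20.

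Of the 11 other cap subunits 4 rose, with a median of 0.16 over the 11. Psmd4 (Rpn10), a receptor for ubiquitin chains, was at 204 and 206 CPM in control, 209 and 215 in SRT1720, 325 and 289.9 in RSL3, and 326 and 351 with both compounds. The highest library without RSL3 was at 215 CPM and the lowest with it at 289.9. The rise of 0.59 ± 0.09 (1.5-fold, edgeR adjusted p = 0.000964) was the largest of the 48 and passed under all 17 alternatives. Psmd11 (Rpn6), which braces the cap against the core, rose by 0.42 ± 0.09 (edgeR adjusted p = 0.00383). It was at 151 and 160.5 CPM in control, 164 and 156 in SRT1720, 211 and 207 in RSL3, and 236 and 239.5 with both compounds. The lid subunit Psmd8 (Rpn12) was at 205 and 234 CPM in control and 283 and 313 in RSL3, up by 0.44 ± 0.10 (edgeR adjusted p = 0.00702). Psmd3 (Rpn3), also of the lid, was at 356 and 375 CPM in control and 459.9 and 434 in RSL3. Its rise of 0.29 ± 0.09 (edgeR adjusted p = 0.0367) passed under 10 of 17 alternatives. The deubiquitinase Psmd14 (Rpn11), with 80.9 and 98.4 CPM in control and 100.3 and 118 in RSL3, did not pass (0.28 ± 0.12, edgeR adjusted p = 0.0948). The scaffold Psmd1 (Rpn2) and the lid subunits Psmd6, Psmd12 and Psmd13 had differences of 0.05 to 0.12.

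None of the 7 assembly chaperones or the 6 alternative caps and regulators rose after RSL3 by edgeR, where 1 of the former and 2 of the latter had an unadjusted p under 0.05 in either direction, and none rose by limma-voom and 1, Psme4, by DESeq2. Psmg3, part of a pair of chaperones that build the alpha ring, was at 25.4 and 21.3 CPM in control, 25.3 and 27.5 in SRT1720, 19.4 and 14.8 in RSL3, and 25.6 and 28.1 with both compounds. The RSL3 libraries were the lowest of the 8, and the fall of −0.45 ± 0.15 (edgeR adjusted p = 0.0432) passed under 9 of 17 alternatives. Another gene, Gm26938, overlaps Psmg3 on the same strand, so its reads may be divided between them. Psmg1, Psmg2 and Psmg4 had differences of 0.02, −0.18 and 0.19, none of which passed. The 19S chaperones Psmd5, Psmd9 and Psmd10 had −0.22, 0.13 and 0.06 and did not pass either. Both RSL3 libraries of Psmd5 were below both controls, and Psmd5 passed downward with library size alone. Among the caps, Psme4 was at 0.41 ± 0.15 (edgeR adjusted p = 0.065) and Psme3 at −0.22 ± 0.09 (edgeR adjusted p = 0.0817), both without overlap of the libraries. Psme4 also passed upward with the crossed replicate block, and without control replicate 2, RSL3 replicate 1 or the second libraries of both groups, and Psme3 passed downward with the crossed block and with library size alone. Psmf1, the PI31 regulator, was at 45.0 and 41.6 CPM in control and 53.6 and 44.8 in RSL3, which is 0.18 ± 0.14 (edgeR adjusted p = 0.346), or −0.10 with library size alone.

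SRT1720 alone changed no proteasome gene at the threshold, where 1.10% of all genes rose and 0.206% fell. By edgeR 1 member had an unadjusted p under 0.05, limma-voom called none and DESeq2 called 1. In both cases the gene was Psmd8, with 289 and 292 CPM after SRT1720 against 205 and 234 in control. Its groups did not overlap, and the difference was 0.40 ± 0.10 on the log2 scale (edgeR adjusted p = 0.0958). The log2 differences of the 48 had a median of −0.01 and ran from −0.17 to 0.41. SRT1720 libraries were above both controls for 7 members (14.6%), against 24.8% of all genes, and below for 5 (10.4%), against 23.1%. The genes followed in every comparison were at −0.09 ± 0.10 (Psma1), −0.02 ± 0.09 (Psmb5), 0.18 ± 0.16 (Psmb8), −0.10 ± 0.12 (Psmc1), 0.05 ± 0.09 (Psmd4), −0.06 ± 0.12 (Psmd14), −0.05 ± 0.15 (Psme4), 0.09 ± 0.14 (Psmf1) and −0.12 ± 0.12 (Psmg1). The 95% interval for Psmd4 was −0.16 to 0.25 and for Psmb5 −0.23 to 0.18.

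In RSL3-treated cells, SRT1720 given first raised 3 proteasome genes and lowered 1, against 11.4% and 8.75% of all genes. The 3 were the lid gene Psmd8, the nuclear cap Psme3 and the chaperone Psmg3, and the 1 that fell was Psme4, the PA200 cap known from chromatin and histone degradation. Psme4 stood at 68.2 and 88.4 CPM in control, 79.7 and 71.8 in SRT1720, 89.8 and 118 in RSL3, and 67.2 and 64.9 with both compounds. The RSL3 libraries were the highest of the 8, the second well above the first, and the pair with both compounds the lowest. The fall was −0.65 ± 0.16 (edgeR adjusted p = 0.0173), and it missed the threshold without RSL3 replicate 2 or without either library with both compounds. Psmg3 rose by 0.65 ± 0.15 (edgeR adjusted p = 0.0158) from 19.4 and 14.8 to 25.6 and 28.1 CPM and lost the call without the same 3 libraries.

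Psme3 was at 225 and 213 CPM in control, 248 and 228 in SRT1720, 189 and 187 in RSL3, and 226 and 235 with both compounds. Its RSL3 libraries were the lowest of the 8. The rise of 0.29 ± 0.09 (edgeR adjusted p = 0.0429) was lost under 10 of 16 alternatives. Psmd8 reached 366 and 389.9 CPM with both compounds against 283 and 313 with RSL3, a rise of 0.34 ± 0.10 (edgeR adjusted p = 0.038) that was lost under 6 of 16. The counts rested on single libraries: without either library with both compounds no member passed, and without RSL3 replicate 1 or 2 or SRT1720 replicate 1 or 2 the count of rises was 1, which was Psmd8 without RSL3 replicate 2 and Psmg3 otherwise. Without RSL3 replicate 1 the count of falls was 2, Psme4 and Psmg1.

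**Figure D2:**
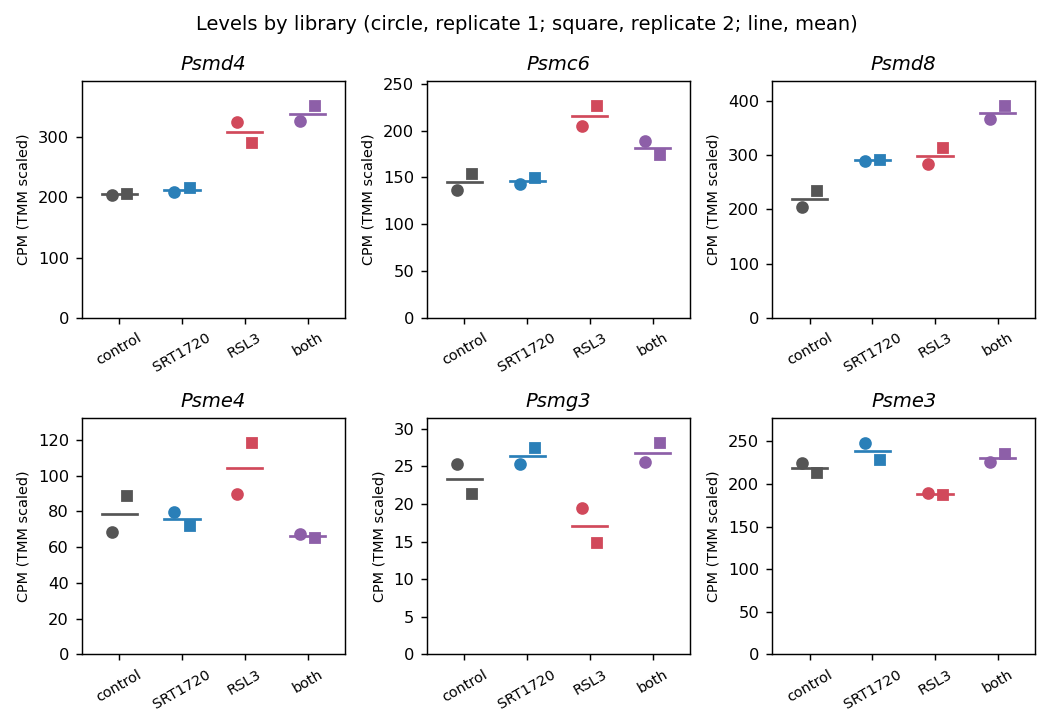
CPM (TMM scaled) in each of the 8 libraries for Psmd4, Psmc6, Psmd8, Psme4, Psmg3 and Psme3, with axes from 0, a circle for replicate 1, a square for replicate 2 and a line at the mean. Psmd4 is at 203.9 to 215 CPM without RSL3 and at 289.9 to 351 with it, Psmd8 is highest with both compounds, and Psmg3 and Psme3 are lowest with RSL3 alone.

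No other member passed between the groups given RSL3 with and without SRT1720. The median log2 difference over all 48 was −0.03 (range −0.65 to 0.65). Libraries with both compounds were above both RSL3 libraries for 8 members and below for 10 (16.7% and 20.8%), against 30.3% and 29.3% of all genes. The alpha-ring gene Psma5 came nearest without passing, at −0.35 ± 0.11 (edgeR adjusted p = 0.0524), and it passed with RLE scaling, by DESeq2 and with the crossed replicate block. Psma1 was at −0.27 ± 0.10 (edgeR adjusted p = 0.0828) and Psmg1, an alpha-ring chaperone, at −0.33 ± 0.12 (edgeR adjusted p = 0.0773). Differences of the remaining followed genes were 0.01 ± 0.09 for Psmb5, 0.18 ± 0.16 for Psmb8, 0.07 ± 0.12 for Psmc1, 0.14 ± 0.09 for Psmd4, −0.17 ± 0.12 for Psmd14 and 0.16 ± 0.14 for Psmf1. The 95% interval of the difference was −0.07 to 0.34 for Psmd4 and −0.19 to 0.21 for Psmb5.

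The comparison of both compounds with SRT1720 alone gives the effect of RSL3 in pretreated cells, with libraries that the RSL3-to-control comparison did not set against each other, although the spread comes from all 8. There 11 members rose and 1 fell, against 12.3% and 9.06% of all genes, with a median of 0.18 over the 48. The rises were in Psmb3 (0.35 ± 0.11) and Psmb4 (0.51 ± 0.09) of the beta ring, in the ATPases Psmc2 (0.64 ± 0.10), Psmc3 (0.33 ± 0.10), Psmc4 (0.50 ± 0.09) and Psmc5 (0.40 ± 0.10), and in Psmd3 (0.40 ± 0.09), Psmd4 (0.68 ± 0.09), Psmd7 (0.35 ± 0.09), Psmd8 (0.38 ± 0.10) and Psmd11 (0.57 ± 0.09) of the cap. Adjusted p-values of these rises in edgeR lay between 0.000989 for Psmd4 and 0.0434 for Psmb3. The gene that fell was the 19S chaperone Psmd5, which was at 128 and 117 CPM in SRT1720 and 96.3 and 98.3 with both compounds (−0.33 ± 0.10, edgeR adjusted p = 0.0427). By role, 4 of 6 ATPases, 5 of 11 other cap subunits, 2 of 7 constitutive beta genes and 0 of 7 alpha genes rose. In the alpha ring, edgeR gave 1 unadjusted p under 0.05. Libraries with both compounds were above both SRT1720 libraries for 28 members (58.3%), against 33.6% of all genes, and below for 6 (12.5%), against 34.2%.

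With library size alone, which shifted the median of all genes by −0.21, 5 members rose in pretreated cells (Psmb4, Psmc2, Psmc4, Psmd4 and Psmd11) and 4 fell (Psmd5, Psmd10, Psmg1 and Psmg2). Leaving out SRT1720 replicate 1 or 2 gave 5 or 6 rises, and leaving out replicate 1 or 2 with both compounds gave 5 or 4. With only these 4 libraries in the fit 17 members rose and 3 fell. The fall of Psmd5 was lost with the replicate block, with no filter on low counts, and without any 1 library of control, SRT1720 or both compounds. The followed genes that did not pass were Psma1 at 0.21 ± 0.10, Psmb5 at 0.18 ± 0.09, Psmb8 at 0.01 ± 0.16, Psmc1 at 0.31 ± 0.12, Psmd14 at 0.17 ± 0.12, Psme4 at −0.20 ± 0.16, Psmf1 at 0.25 ± 0.14 and Psmg1 at −0.19 ± 0.12.

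Both compounds together against untreated control gave 12 rises and no fall by edgeR, against 17.4% and 14.1% of all genes. These control libraries are also those of the RSL3-to-control comparison, so the results are not independent of each other. At an unadjusted p under 0.05 there were 17 members in either direction, and DESeq2 called 1 fall, of Psmd5. Psmd8 had the largest rise, 0.78 ± 0.10 (1.72-fold, edgeR adjusted p = 0.000393), from 205 and 234 to 366 and 389.9 CPM. Psmd4 rose by 0.72 ± 0.09, Psmd11 by 0.61 ± 0.09, Psmc2 by 0.57 ± 0.10 and Psmb4 by 0.50 ± 0.09, and these 5 genes passed under all 16 alternatives. The other rises were Psma7 (0.31 ± 0.10), Psmb2 (0.29 ± 0.09), Psmb3 (0.36 ± 0.11), Psmb6 (0.41 ± 0.09), Psmc4 (0.48 ± 0.09), Psmc6 (0.32 ± 0.10) and Psmd7 (0.31 ± 0.09). Libraries did not overlap for 26 members upward (54.2%, against 34.6% of all genes) and for 5 downward (10.4%, against 34.5%). Leaving out control replicate 1 gave 7 rises and leaving out replicate 2 with both compounds gave 6. Library size alone, which shifted the median of all genes by −0.23, gave 5 rises and 5 falls (Psmd5, Psmd10, Psme4, Psmg1 and Psmg2).

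Among the followed genes that did not pass for both compounds against control, Psmg1 was at −0.31 ± 0.12 (edgeR adjusted p = 0.0682), Psmf1 at 0.34 ± 0.14 (edgeR adjusted p = 0.0884) and Psme4 at −0.24 ± 0.16. Psma1 was at 0.12 ± 0.10, Psmb5 at 0.15 ± 0.09, Psmb8 at 0.19 ± 0.16, Psmc1 at 0.21 ± 0.12 and Psmd14 at 0.11 ± 0.12.

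No member passed the interaction, which asks whether the effect of SRT1720 differed with and without RSL3 and which 3.46% of all genes passed upward and 2.92% downward. By edgeR 1 member had an unadjusted p under 0.05, and limma-voom and DESeq2 called none. The exception was Psme4, at −0.61 ± 0.22 (95% interval −1.10 to −0.12, edgeR adjusted p = 0.143). Psmg3 was at 0.47 ± 0.21. Without RSL3 replicate 1 Psme4 passed downward and Psmg3 upward. The log2 differences of the members had a median of −0.03 and ran from −1.04 to 0.47. Followed genes were at −0.17 ± 0.14 (Psma1), 0.04 ± 0.13 (Psmb5), 0.00 ± 0.22 (Psmb8), 0.18 ± 0.17 (Psmc1), 0.09 ± 0.13 (Psmd4), −0.11 ± 0.17 (Psmd14), 0.07 ± 0.20 (Psmf1) and −0.21 ± 0.16 (Psmg1).

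The interferon-inducible members, Psmb8, Psmb9, Psmb10 and the PA28 cap genes Psme1 and Psme2, passed in no comparison, and in control and RSL3 their second library was lower than the first. Exceptions under other settings were Psmb10, which fell after RSL3 with library size alone, and Psme2, which was lower with both compounds than with SRT1720 alone when only those 4 libraries were fitted. Psmb8 was at 34.2 and 24.4 CPM in control, 32.7 and 33.5 in SRT1720, 32.2 and 26.7 in RSL3, and 32.6 and 34.1 with both compounds. The second libraries of control and RSL3 were the lowest of the 8. Psme2 had the same order, with 74.8 and 52.4 CPM in control, 82.9 and 85.9 in SRT1720, 84.6 and 59.0 in RSL3, and 69.2 and 71.4 with both compounds. Psme1 was at 100.7 and 76.4 CPM in control, 98.3 and 107 in SRT1720, 115 and 86.5 in RSL3, and 106 and 109.6 with both compounds. Over these 5 genes the log2 ratio of replicate 2 to replicate 1 had a median of −0.49 in control and −0.42 in RSL3, against 0.05 in SRT1720 and 0.05 with both compounds. The other 43 members had medians of 0.09, 0.10, −0.05 and 0.11 in those groups. A lower second library in control and RSL3 was not limited to these 5 genes. H2-K1, a class I antigen presentation gene, was at 445 and 254 CPM in control and 639 and 363 in RSL3. It was at 459 and 451 CPM in SRT1720 and 475 and 486 with both compounds. All class I genes counted below were lower in the second control library, and all but Erap1 in the second RSL3 library.

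**Figure D3:**
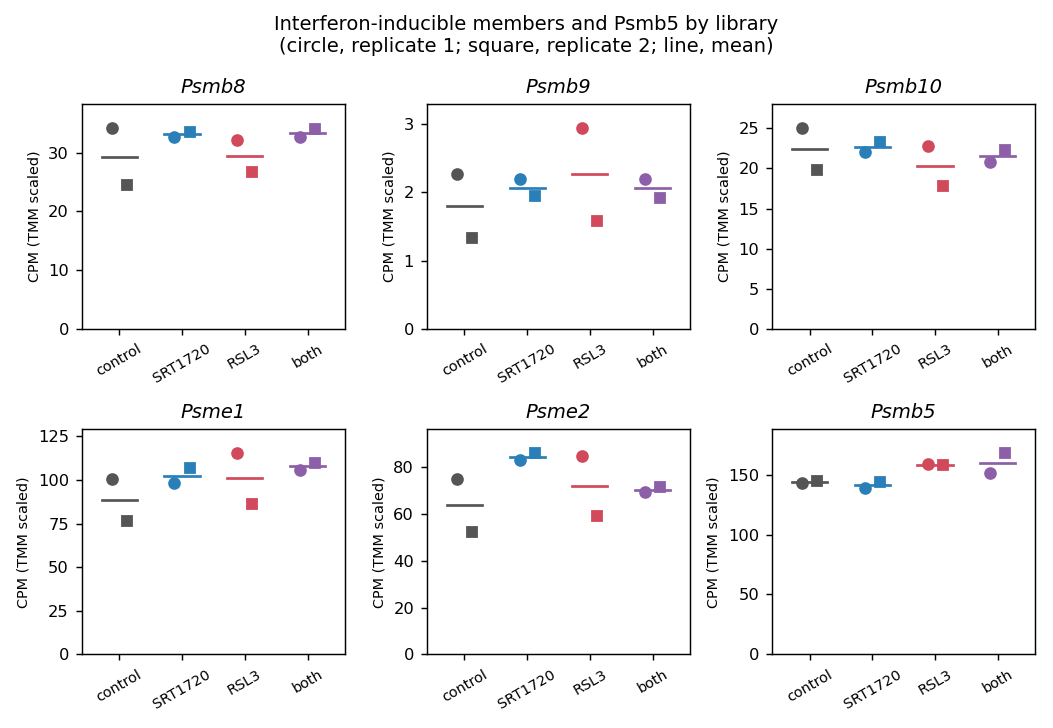
CPM (TMM scaled) in each of the 8 libraries for Psmb8, Psmb9, Psmb10, Psme1, Psme2 and, for comparison, Psmb5, with axes from 0, a circle for replicate 1, a square for replicate 2 and a line at the mean. In control and RSL3 the square lies under the circle for the 5 interferon-inducible genes, as for Psme2 at 52.4 against 74.8 CPM in control, while Psmb5 is at 143 and 145 CPM there.

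The RSL3-to-control difference of Psmb8 was 0.01 ± 0.16 (95% interval −0.35 to 0.36), and it was −0.09 when the second libraries of both groups were left out, a comparison chosen after seeing the data. With that omission 13 members rose and 1 fell. Psmb9, Psmb10, Psme1 and Psme2 had RSL3-to-control differences of 0.33 ± 0.36, −0.14 ± 0.15, 0.19 ± 0.16 and 0.18 ± 0.19. Psmb9 lies across from Tap1, Psmb8 from Gm20496, Psmb10 from Gm16156 and Psme1 from Emc9. Without a stated strand setting in the counting, their reads cannot be told apart from those of these opposite genes.

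Of 9 genes that act with the immunoproteasome in class I antigen presentation, 1 rose and 1 fell after RSL3 (11.1% each, against 18.3% and 17.5% of all genes), with a median of 0.12 over the 9. B2m, the light chain of class I molecules, rose by 0.65 on the log2 scale. The interferon pathway factor Irf1 fell by 1.81. It was at 56.6 and 38.3 CPM in control and 14.9 and 12.1 in RSL3. Tap1, a subunit of the peptide transporter and neighbour of Psmb9, fell by 1.03 in RSL3 cells given SRT1720 first, from 19.4 and 19.1 to 9.47 and 9.40 CPM, while Psmb9 was at 2.94 and 1.58 against 2.19 and 1.92 CPM.

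Among 24 tested partners of the proteasome without a Psm symbol, 10 rose (41.7%, against 18.3% of all genes) and none fell (against 17.5%) after RSL3, with a median of 0.19 against 0.01; at an unadjusted p under 0.05 there were 12 in either direction. The largest rises were in the zinc finger genes Zfand2a and Zfand5, whose proteins bind the proteasome under stress. Zfand2a was at 69.1 and 78.5 CPM in control, 116 and 106 in SRT1720, 716 and 622 in RSL3, and 603 and 587 with both compounds. That is a rise of 3.18 ± 0.12 after RSL3 (edgeR adjusted p = 9.57e-08), and also of 0.59 ± 0.11 after SRT1720 alone (edgeR adjusted p = 0.0306). Zfand5 was at 59.6 and 69.0 CPM in control, 60.1 and 62.7 in SRT1720, 246 and 276 in RSL3, and 181 and 149 with both compounds, up by 2.02 ± 0.13 after RSL3 (edgeR adjusted p = 2.82e-06). The groups of Zfand5 with RSL3 alone and with both compounds did not overlap, and it fell by 0.66 ± 0.12 between them (edgeR adjusted p = 0.00495).

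Of the 6 partners listed for transcription and stress control, 4 rose, Nfe2l1 and Nfe2l2 besides the zinc finger genes above. The other 2, Ddi2 and Ngly1, did not pass. Nfe2l1, which encodes NRF1, was at 163 and 168 CPM in control, 179 and 172 in SRT1720, 226 and 228 in RSL3, and 272 and 258 with both compounds. Its level was higher in each library with RSL3 than in any without, and the rise over control was 0.46 ± 0.08 (edgeR adjusted p = 0.00234), or 0.17 with no call under library size alone. Nfe2l2, which encodes NRF2, was at 95.8 and 87.7 CPM in control, 77.0 and 79.0 in SRT1720, 169.8 and 188 in RSL3, and 132 and 128 with both compounds. It rose by 0.96 ± 0.10 after RSL3 (edgeR adjusted p = 5.9e-05) and fell by 0.46 ± 0.09 between RSL3 alone and both compounds (edgeR adjusted p = 0.00881). Nfe2l1 was at 0.22 ± 0.08 in that last comparison and did not pass (edgeR adjusted p = 0.0905). Of the 6 members with an antioxidant core in the promoter window, 2 (Psmb6 and Psmc6) rose after RSL3. Among all 48 members 12 rose (25.0%), and among all genes 18.3%. The log2 differences of the 6 ran from 0.12 to 0.57. Psmb1, Psmb2, Psmb7, Psmc3, Psmd3, Psmd7 and Psmg2 had no window, and of these Psmb2 and Psmd3 rose. Whether the core has a part in any rise was not tested.

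**Figure D4:**
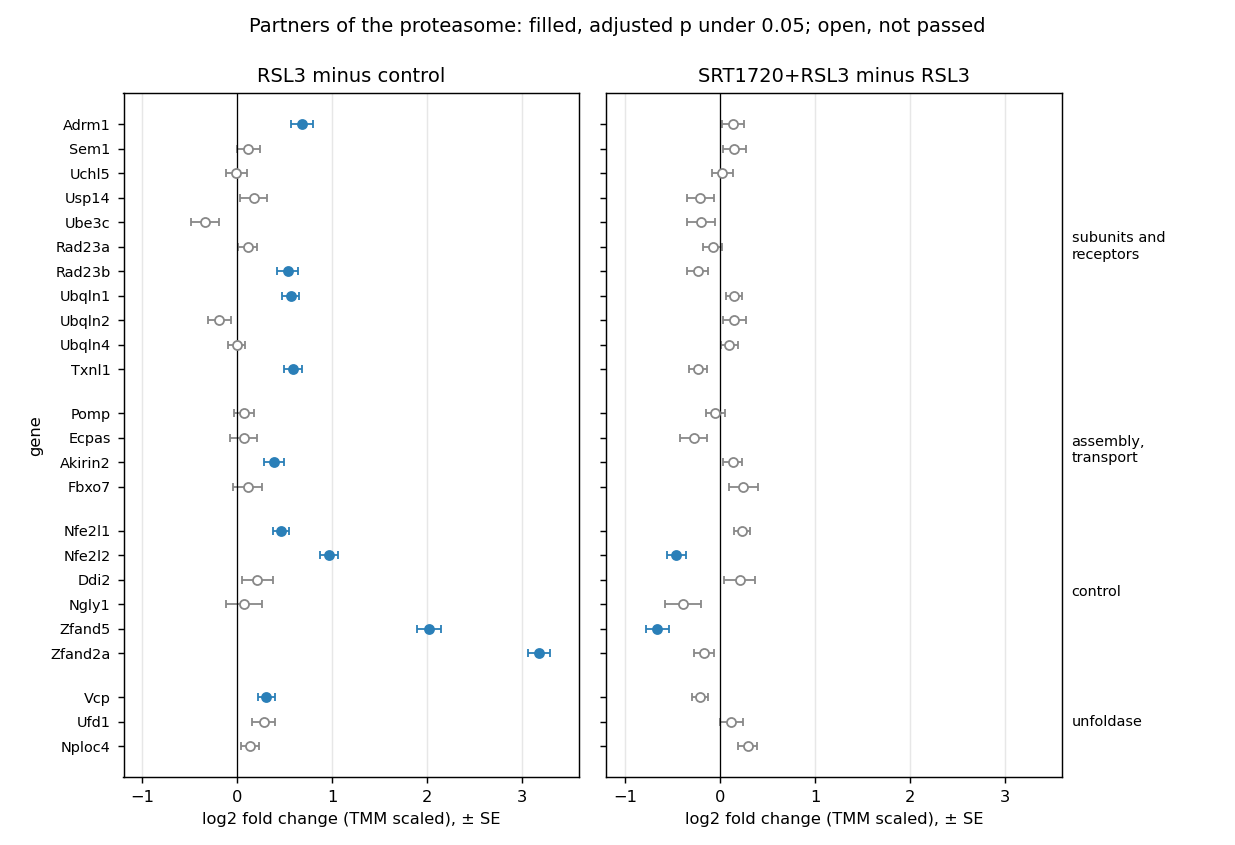
Log2 fold change (TMM scaled, ± SE) of 24 partner genes of the proteasome for RSL3 minus control (left) and SRT1720+RSL3 minus RSL3 (right), grouped by function. Filled points passed the adjusted p threshold of 0.05 in edgeR: Zfand2a at 3.18 and Zfand5 at 2.02 lie farthest right on the left, and Zfand5 and Nfe2l2 fell on the right.

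Ubiquitin receptors, shuttles and a further cap-bound protein made up 4 of the 10 partner rises. Adrm1 (Rpn13), another ubiquitin receptor of the cap, was at 299 and 311 CPM in control, 286 and 284 in SRT1720, 545 and 431 in RSL3, and 508 and 559.5 with both compounds. No library with RSL3 overlapped one without it, and the rise was 0.68 ± 0.12. The shuttle factors Rad23b and Ubqln1, which carry ubiquitinated proteins to the cap, rose by 0.53 and 0.56, and the cap-bound thioredoxin Txnl1 by 0.59. Akirin2, which brings proteasomes into the nucleus, rose by 0.39, and the unfoldase Vcp, which extracts substrates, by 0.31. Akirin2 passed under 13 and Vcp under 12 of 17 alternatives, and both lost the call with only the 4 libraries compared. With 1 library left out Akirin2 ran from 0.27 to 0.47 and Vcp from 0.24 to 0.34. With library size alone Rad23b, Akirin2, Vcp and Nfe2l1 no longer passed, and the other 6 rises did. Pomp, the maturation factor of the core, was at 0.07 and did not pass. SRT1720 alone raised 1 partner (4.17%, against 1.10% of all genes) and lowered none (against 0.206%). Given before RSL3 it raised none and lowered 2 against RSL3 alone by edgeR (6 at an unadjusted p under 0.05), which is 8.33% lowered, near the 8.75% of all genes, where 11.4% rose. RSL3 in pretreated cells raised 12 (50% against 12.3%) and lowered 1 (4.17% against 9.06%).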

How the data were processed

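Stranded poly(A) libraries were made with a TruSeq kit and sequenced on an Illumina HiSeq instrument, per the labels. The authors deposited 1 table of expected counts, in which reads shared between genes were divided; in the sources used here the aligner, counter, genome build, strand setting and filters are not given. Columns were assigned to replicates by the library names in the labels. Expected counts were rounded and tested with edgeR 4.0.16 (R 4.3.3): TMM scaling, filterByExpr, a mean per group, all 8 libraries, a two-sided quasi-likelihood test, and Benjamini-Hochberg adjustment over 12618 genes at 0.05. There were 4 residual and 5.73 prior degrees of freedom. The biological coefficient of variation was 10.6%, which is the square root of the common dispersion that edgeR estimated over all genes and groups. Log2 fold changes are given ± SE. The test was tried on simulated data for RSL3 against control over 12618 genes, where it recovered 10 of 100 genes changed by a log2 of 0.4 and 96 of 100 changed by 1, with 6 false calls. All other genes were simulated without a change, so the adjusted threshold was stricter than in the deposited data, where far more genes were called. Alternatives included limma-voom (limma 3.58.1) and DESeq2 1.42.0. Lengths and overlapping genes came from GENCODE vM21 (GRCm38), gene spans and promoter windows from RefSeq. The build of the counts is unknown, so no count was read by coordinate. Named genes were every member that passed, where none did the one with the lowest p, 9 members and the genes Nfe2l1 and Nfe2l2 in every comparison, and the partners that passed for RSL3 against control. Others were named to give ranges or to complete a group. The members, lists and rules were chosen with earlier results of these data known. Comparisons share libraries and no overlap between them was tested. A partner gene, Paaf1, and the markers Lum, Adgre1 and Cd3e were not analysed here. A gene of the antigen presentation list is not reported here and was left out of that list's counts.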

Additional observations from a re-analysis of the deposited data

How the results depend on the processing

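The calls on the proteasome genes depended most on the scaling and on single libraries. Under all alternatives, 1576 values kept their direction and side of the threshold, 145 lost a call, 25 gained one and 49 turned. Library size alone changed the counts of rises and falls to 2 and 5 for RSL3 against control, to 5 and 4 for both compounds against SRT1720, and to 5 and 5 for both compounds against control. It also turned RSL3 against control to −0.15 for Psmb5, −0.28 for Psmb8, −0.15 for Psmc1, −0.10 for Psmf1 and −0.27 for Psmg1. It turned both compounds against SRT1720 to −0.03 for Psmb5, −0.20 for Psmb8 and −0.0371 for Psmd14, and both compounds against control to −0.11 for Psma1, −0.0763 for Psmb5, −0.0462 for Psmb8, −0.0175 for Psmc1 and −0.11 for Psmd14. With only the 4 libraries compared, falls were 0 and rises 8 for RSL3 against control (Psmb8 −0.0149, Psmg1 −0.0023). For both compounds, rises were 1 against RSL3, rises 17 and falls 3 against SRT1720, and falls 1 against control. That fit takes its spread from those 4 libraries alone, and the spread differed between groups. The SD over 9722 genes of the log2 ratio of replicate 2 to replicate 1 was 0.261 in control and 0.314 in RSL3. It was 0.163 in SRT1720 and 0.167 with both compounds. Whether this difference moved the calls was not tested. RLE and DESeq2 gave 2 falls against RSL3 and 1 against control for both compounds, and DESeq2 1 rise for SRT1720. With no filter on low counts the fall of Psmd5 was lost (0 falls). These alternatives were run for all comparisons, apart from the 4-library fit, which the interaction cannot have, and except where a value shows it the cause of a change was not tested.

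The replicate numbers of the labels were checked for pairing by the correlation of deviations from group means over 9722 genes: 0.693 for control with RSL3, −0.276 and −0.36 for both compounds with control and RSL3, and −0.052 to 0.045 for SRT1720 with the others. The deviations went together in control and RSL3 and not across all groups, and no label ties the numbers to a shared culture or day, so the numbers were not taken to pair the libraries. The replicate block gave 13 rises and 1 fall for RSL3 against control and 0 falls for both compounds against SRT1720, and turned Psmb8 to −1e-04 in the interaction. A crossed replicate block, chosen after seeing the data, gave falls of 2 for RSL3 against control, 3 for both compounds against RSL3 and 1 against control, 1 rise for SRT1720, and −0.0042 for Psmb8 in the interaction (limma-voom −0.009).

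Leaving out 1 library at a time gave 5 to 13 rises and 0 to 1 falls for RSL3 against control, 0 to 1 rises for SRT1720, 0 to 2 rises and 0 to 2 falls for both compounds against RSL3, 4 to 15 and 0 to 1 against SRT1720, 6 to 14 and 0 to 2 against control, and 0 to 1 and 0 to 1 in the interaction. With the second libraries of control and RSL3 both left out, an alternative chosen after seeing the data, Psmb8 was at −0.0899 and Psmg1 at −0.0187. The followed genes without a call whose sign turned when 1 library was left out had these ranges: in RSL3 against control, Psmb8 −0.218 to 0.266 and Psmg1 −0.0748 to 0.0829; in SRT1720 against control, Psmb5 −0.0545 to 0.0027, Psmb8 −0.047 to 0.438, Psmc1 −0.238 to 0.0402, Psmd14 −0.194 to 0.0899, Psme4 −0.226 to 0.151 and Psmf1 −0.089 to 0.256. In both compounds against RSL3 they were Psmb5 −0.0615 to 0.0977 and Psmc1 −0.0276 to 0.20, against SRT1720 Psmb8 −0.0212 to 0.0378, and against control Psmb8 −0.0372 to 0.447 and Psmd14 −0.0251 to 0.26. In the interaction they were Psmb5 −0.0354 to 0.124, Psmb8 −0.256 to 0.228, Psmd14 −0.262 to 0.0231 and Psmf1 −0.0939 to 0.25. In the simulated data, where 100 genes were changed at each size, a log2 change of 0.4 was mostly missed. In RSL3 against control 18.3% of all genes rose and 17.5% fell, which makes the adjusted threshold less strict there. The simulated share therefore does not give the sensitivity of that comparison.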
